A study of Rattus norvegicus with 10 samples.

Results

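The genes of lipid and sterol synthesis described here are Acly, Fasn, Scd and Scd2, which make fatty acids, and Hmgcs1, Fdps, Fdft1 and Sqle, which make sterols. They were taken by gene symbol, and every probe set that the array's platform annotation gives to one of these symbols alone was described in all 10 glands. Of the 8 genes, 7 had such a probe set, 21 probe sets in all of the 8740 on the array. Hmgcs1 had none listed and was not analysed here. One further probe set carries 4 symbols, Scd and Scd2 among them, and was not used.

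Total RNA from rat lacrimal glands, the glands beside the eye that secrete the watery part of tears, was hybridised to Affymetrix arrays at 1 array per gland. The 5 denervated glands were taken 7 days after the greater superficial petrosal nerve had been cut. This nerve carries the preganglionic parasympathetic fibres that drive the gland's secretion. The control glands were 3 contralateral glands taken at the same interval, 1 gland of an unoperated animal and 1 gland taken 7 days after a sham operation. The word contralateral comes from the titles of those 3 glands, which were followed although the descriptions say ipsilateral. The labels give no strain, sex or age. Nothing in them says that each gland came from its own animal, so a p-value here covers the spread among these arrays, part of which could be technical.

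Fatty acids are built in the cytosol from acetyl-CoA. ATP citrate lyase, the product of Acly, makes that acetyl-CoA from citrate, fatty acid synthase (Fasn) assembles it into palmitate, and the stearoyl-CoA desaturases (Scd, Scd2) place a double bond in the finished saturated chain. Sterols start from the same acetyl-CoA. HMG-CoA synthase (Hmgcs1) acts early, farnesyl diphosphate synthase (Fdps) makes the farnesyl diphosphate that is also used for protein prenylation, squalene synthase (Fdft1) joins farnesyl units into squalene, and squalene epoxidase (Sqle) takes the oxygen-dependent step towards lanosterol. In mammals most of these genes are targets of the SREBP transcription factors, which act together with NF-Y at CCAAT boxes and with Sp1 at GC boxes. A secretory gland uses these lipids for the membranes of its endoplasmic reticulum, Golgi and secretory granules.

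RefSeq promoters (GRCr8, 250 bases before to 50 after the annotated start) were matched for 5 of the 8 genes, Acly, Scd, Scd2, Hmgcs1 and Fdps. Those of Scd2 and Fdps are shown because Fdps M89945mRNA_at and Scd2 AF036761_at had the largest log2 differences from all controls of the 19 probe sets tested, and that of Scd because its tested probe set lay in the opposite direction from Scd2. Capitals mark each CCAAT box or its reverse complement ATTGG. The Scd2 promoter is chr1:253118127-253118426 (plus strand), the Fdps promoter chr2:176804767-176805066 (minus strand) and the Scd promoter chr1:253231682-253231981 (minus strand).
Scd2: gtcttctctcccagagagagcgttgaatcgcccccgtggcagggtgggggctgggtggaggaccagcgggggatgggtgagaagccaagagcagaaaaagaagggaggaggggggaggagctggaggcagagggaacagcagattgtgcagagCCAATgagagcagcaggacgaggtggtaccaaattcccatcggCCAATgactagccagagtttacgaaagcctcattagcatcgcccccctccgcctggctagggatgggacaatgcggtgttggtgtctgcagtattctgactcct
Fdps: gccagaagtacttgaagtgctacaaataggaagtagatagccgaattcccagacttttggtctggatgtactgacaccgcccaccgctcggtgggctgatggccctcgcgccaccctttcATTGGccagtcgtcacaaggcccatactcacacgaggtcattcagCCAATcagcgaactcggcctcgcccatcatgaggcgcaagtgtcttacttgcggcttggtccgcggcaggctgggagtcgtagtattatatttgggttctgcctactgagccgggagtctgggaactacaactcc
Scd: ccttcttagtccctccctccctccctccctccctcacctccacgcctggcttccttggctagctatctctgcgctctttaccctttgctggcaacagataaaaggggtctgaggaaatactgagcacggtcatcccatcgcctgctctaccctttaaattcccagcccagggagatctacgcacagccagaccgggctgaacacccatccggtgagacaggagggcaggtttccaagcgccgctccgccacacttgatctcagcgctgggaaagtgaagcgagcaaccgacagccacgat
CCAAT boxes begin 97 and 54 bases before the start in Scd2 and 130 and 85 bases before it in Fdps, and the Scd promoter has no such letters. Whether these letters go with the direction of a difference was not tested. Of the 5 promoters matched, 4 hold a CCAAT box on either strand, against 37.5% of 33469 RefSeq promoters of the same length, and 3 of 5 hold the GC box GGGCGG on either strand, against 33.1%. One pattern for the sterol regulatory element, TCACNCCAC on both strands, was in 0 of the 5 and in 1.12% of all promoters. Elements with other letters were not searched, so this count does not show that a promoter lacks one. No match of one motif overlaps a match of another in the 5 promoters. These matches describe letters in a window and not bound sites.

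The deposited values are intensities, scaled by array. They allow a probe set to be compared between glands, but not the level of one gene with that of another. Values below 156.6, the 20th percentile of all intensities, were set to that floor before log2 was taken. Of the 21 probe sets, 19 passed the filter on dim probe sets and were tested with limma, and the other 2 (Scd rc_AI175764_s_at and Scd2 M15114_at) lay at the floor in 7 and 8 of the 10 glands. The probe sets of a gene share their transcript, and all of them share the 10 glands, so they are not independent of each other.

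The denervated 1, contralateral 1 and sham glands stood apart from the other 7 along the first principal component, with scores of -51.7, -50 and -54.3 against -5.3 to 38.2. Their log2 ratios of the 3' to the 5' GAPDH control were -0.18, -0.58 and -0.64, against 0.01 to 0.35. For beta-actin the ratios overlapped, at 0.95, 0.91 and 0.61 against 0.19 to 1.14. They had 15.1%, 17.5% and 12.8% of probe sets at the floor, against 18% to 26.6%. Whether RNA or array quality set them apart was not tested. Denervated 2 and denervated 5 had the highest scores on the second component, at 31.1 and 70.1. The intensities of Pip, a major lacrimal secretory protein, and Aqp5, the acinar water channel, were well above the floor in every gland, at log2 values of 16.67 to 20.49 and 12.61 to 14.21. Some other secretory genes were uneven. Scgb2a1, a secretoglobin of these glands, was at the floor in 5 of them (denervated 1, 2 and 5, contralateral 1 and sham). Lcn2 was at the floor in the sham gland alone and Csap1 in contralateral 1 alone. Dnase1 had log2 values of 18.33 in denervated 1, 19.24 in contralateral 1 and 19.46 in sham, against 9.57 to 13.90 in the other 7. Of 12 tested lacrimal secretory genes, 7 were higher and 5 lower in denervated than in all control glands. In whole-gland RNA, fewer cells of a type and less RNA per cell cannot be told apart.

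Across the lipid and sterol genes, 16 of the 19 tested probe sets had a lower mean in denervated than in control glands and 3 a higher one. The median log2 difference over the 19 was -0.70, from -1.41 to 0.80, against a median of -0.08 and 55.4% lower over all 6118 probe sets tested. None of the 19 passed the limma test after Benjamini-Hochberg adjustment over all probe sets, with adjusted p from 0.436 to 0.952, and 0% of all probe sets passed, the smallest adjusted p of all being 0.384. Without denervated 1, 70 probe sets passed the adjusted limma threshold, 0 of them among the 19. At an unadjusted limma p under 0.05, 5 of the 19 were lower, or 26.3%, against 4.66% of all probe sets, and 0 were higher, against 5.02%. The 5 were Fasn X13527cds_s_at, Scd2 AF036761_at and S75730_at, and Fdps M89945mRNA_at and M89945mRNA_g_at. In either direction, the count was 3 without contralateral 3 (against 9.17% of all probe sets), the sham gland (7.86%), denervated 3 (9.02%) or denervated 5 (6.44%). It was 2 without denervated 4 (8.65%) and 6 without contralateral 2 (9.07%) or denervated 2 (6.28%), beside 9.68% with all 10 glands. In none of the 19 did the 5 denervated glands lie wholly apart from the 5 controls, which happened below the controls for 1.03% and above them for 0.637% of all probe sets. With 1 probe set per gene, 5 of the 7 genes were lower and 2 of them, Fasn and Fdps, had an unadjusted limma p under 0.05, against 55.6% and 5.11% of 3620 genes.

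**Figure D1:**
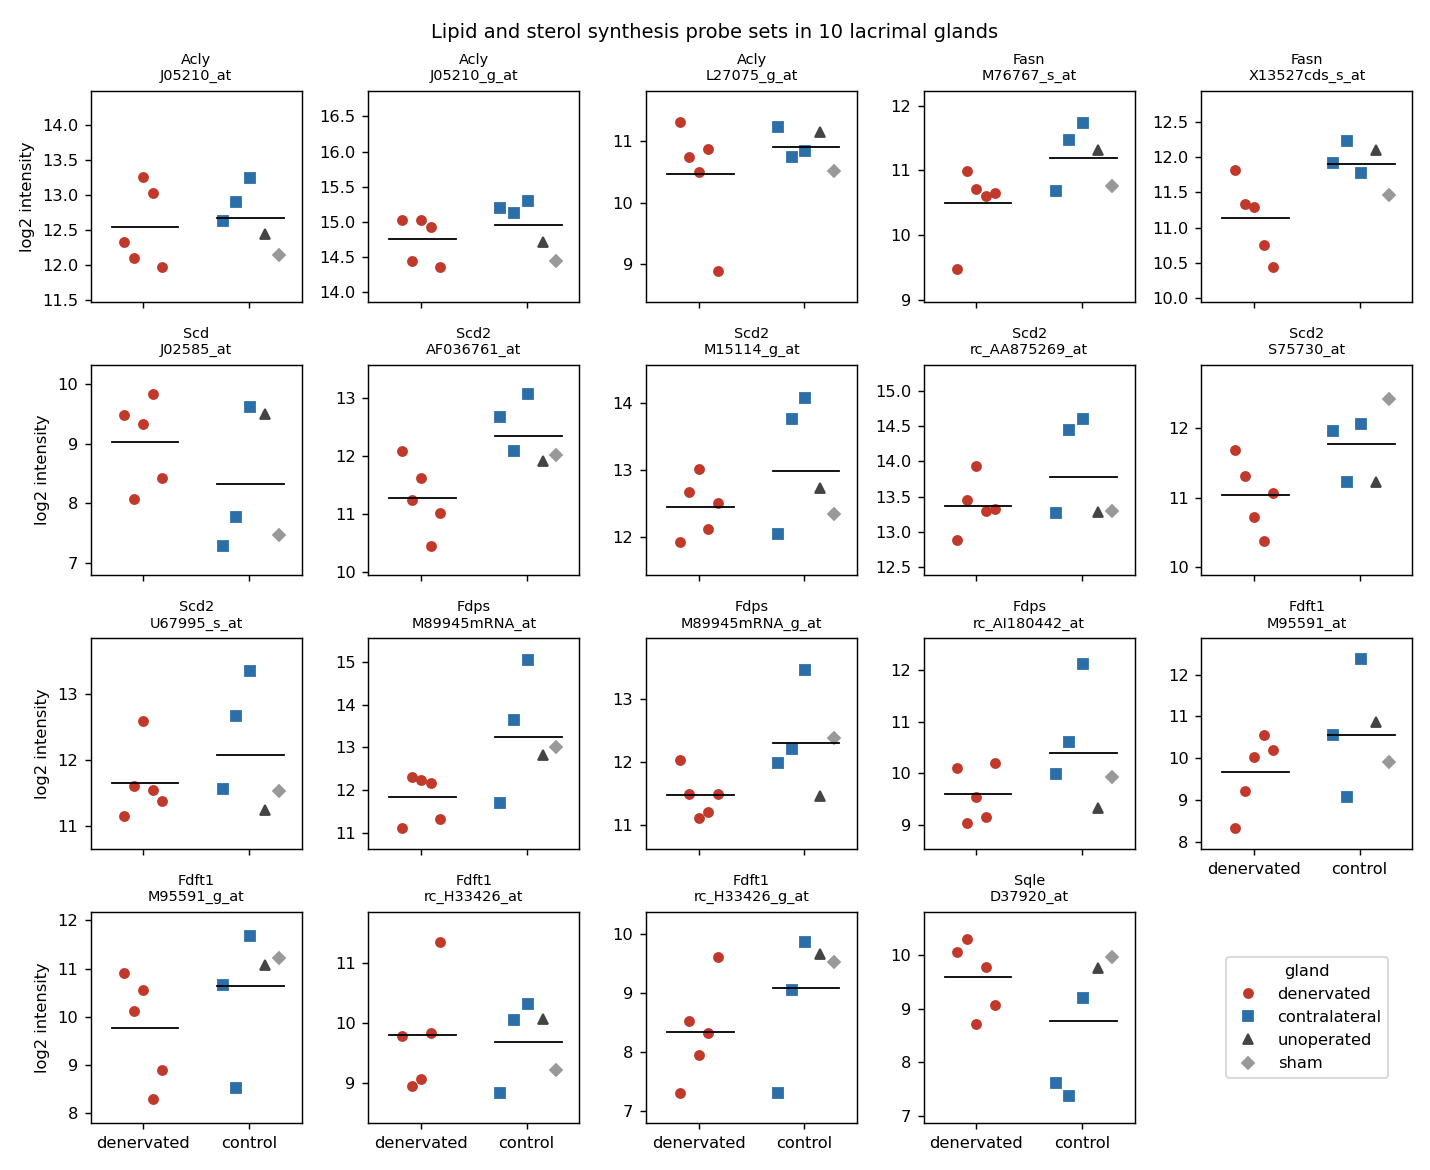
Log2 intensity of each of the 19 tested probe sets (vertical axis) in denervated glands on the left and control glands on the right, with contralateral, unoperated and sham glands as separate symbols and a line at each group mean. Each panel has its own range on the axis, the 5 denervated glands overlap the 5 controls in every panel, and contralateral 3 is the highest gland in 12 of the 19.

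Acly was the gene in which the denervated and control glands differed least on average. On J05210_g_at the intensity was 33421, 22315, 33392, 30990 and 21067 in denervated glands 1 to 5, against 37522, 35634 and 40420 in contralateral glands 1 to 3, 26861 in the unoperated and 22317 in the sham gland. All 5 denervated glands were below all 3 contralateral glands, but they overlapped the unoperated and sham glands. The log2 difference was -0.20 ± 0.23 (SE) against all controls (limma, adjusted p = 0.798), ranging from -0.33 without the sham gland to -0.10 without denervated 5, and -0.45 ± 0.25 against the contralateral glands (limma, adjusted p = 0.744). The companion probe set J05210_at had intensities of 5167, 4409, 9726, 8320 and 4038 in the denervated glands, against 6356, 7610 and 9697 in the contralateral, 5594 in the unoperated and 4531 in the sham gland. Denervated 3 was the highest of the 10 glands on it and denervated 5 the lowest, with a log2 difference of -0.14 ± 0.30 against all controls that became 0.01 without contralateral 3 and 0 without denervated 5. On L27075_g_at denervated 5 stood alone at 476 while the other 4 denervated glands had 1449 to 2542, against 1467 to 2400 in the controls, and the log2 difference was -0.43 ± 0.42, or -0.04 without denervated 5.

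Fasn, the enzyme that carries out the whole chain synthesis, was lower on both of its probe sets. X13527cds_s_at read 3625, 2576, 2498, 1729 and 1393 in denervated glands 1 to 5, against 3884, 4808 and 3495 in the contralateral glands, 4401 in the unoperated and 2813 in the sham gland. The denervated glands, except denervated 1, were below every control. The mean log2 intensity was 11.13 ± 0.54 in denervated and 11.90 ± 0.30 in control glands (SD, n = 5 each), a ratio of 0.587. This difference of -0.77 ± 0.30 (SE) had an unadjusted p of 0.0224 and an adjusted p of 0.451 in limma. M76767_s_at read 712, 2029, 1678, 1560 and 1602 in the denervated glands, against 1645, 2820 and 3387 in the contralateral, 2539 in the unoperated and 1734 in the sham gland. Here denervated 1 was the lowest of the 10 glands, whereas on the other Fasn probe set it was the highest denervated gland, and the correlation between the 2 probe sets was 0.27 over the 10 glands and 0.84 over the 7 glands without denervated 1, contralateral 1 and sham. The log2 difference on M76767_s_at was -0.70 ± 0.36 (limma, adjusted p = 0.54), and it was -0.45 without denervated 1.

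Scd2, a desaturase that in the rat is known from brain and other tissues outside the liver, had 5 tested probe sets, all lower in denervated glands. AF036761_at read 4335, 2432, 3150, 1392 and 2065 in denervated glands 1 to 5, against 6470, 4334 and 8578 in the contralateral glands, 3830 in the unoperated and 4121 in the sham gland. Denervated 2 to 5 were below every control, and denervated 1 lay level with contralateral 2 and above the unoperated and sham glands. The group means were 11.28 ± 0.62 in denervated and 12.34 ± 0.50 in control glands on the log2 scale (SD, n = 5 each), and the ratio was 0.479. With a log2 difference of -1.06 ± 0.34 (SE), this probe set had the smallest p of the 19, unadjusted 0.00685 and adjusted 0.436 in limma. The adjusted p from limma was 0.0732 without denervated 1, its lowest under any alternative.

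S75730_at read 3290, 2544, 1688, 1330 and 2134 in the denervated glands, against 3992, 2382 and 4250 in the contralateral, 2386 in the unoperated and 5455 in the sham gland. Denervated 3, 4 and 5 were below every control and the other 2 overlapped, with a log2 difference of -0.74 ± 0.33 (limma, unadjusted p = 0.0421, adjusted p = 0.505). On the other 3 Scd2 probe sets contralateral 2 and contralateral 3 were far above the remaining controls. M15114_g_at read 3902, 6521, 8256, 4442 and 5853 in denervated glands, against 4247, 13876 and 17220 in contralateral glands 1 to 3, 6778 in the unoperated and 5198 in the sham gland. On rc_AA875269_at the denervated glands had 7523 to 15604, against 22413 and 24856 in contralateral 2 and 3 and 9861 to 10023 in the other 3 controls. U67995_s_at had 2272 to 6201 in denervated glands, against 6524 and 10407 in contralateral 2 and 3 and 2415 to 3020 in the other 3 controls. The log2 differences of these 3 against all controls were -0.54 ± 0.38, -0.40 ± 0.31 and -0.41 ± 0.41. Without contralateral 3 they were -0.27, -0.20 and -0.09, and without contralateral 2 they were -0.35, -0.24 and -0.26. The difference on U67995_s_at was -0.62 without the unoperated gland and -0.65 without denervated 3.

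Over the 10 glands M15114_g_at, rc_AA875269_at and U67995_s_at correlated with each other at 0.89 to 0.96, and AF036761_at correlated with S75730_at at 0.77. Over the 10 glands S75730_at correlated with those 3 at 0.01 to 0.06, and AF036761_at with them at 0.40 to 0.46. Over the 7 glands without denervated 1, contralateral 1 and sham these values were 0.51 to 0.76 and 0.76 to 0.93, so the separation of the 5 probe sets into patterns rests on those 3 glands. These are descriptions over the same 10 arrays, whose scaling the probe sets share. Scd and Scd2 are close paralogs, and how far a probe set reads both was not tested. The dim Scd2 probe set M15114_at was above the floor in 2 glands, denervated 1 at 400 and denervated 5 at 240, and in no control.

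**Figure D2:**
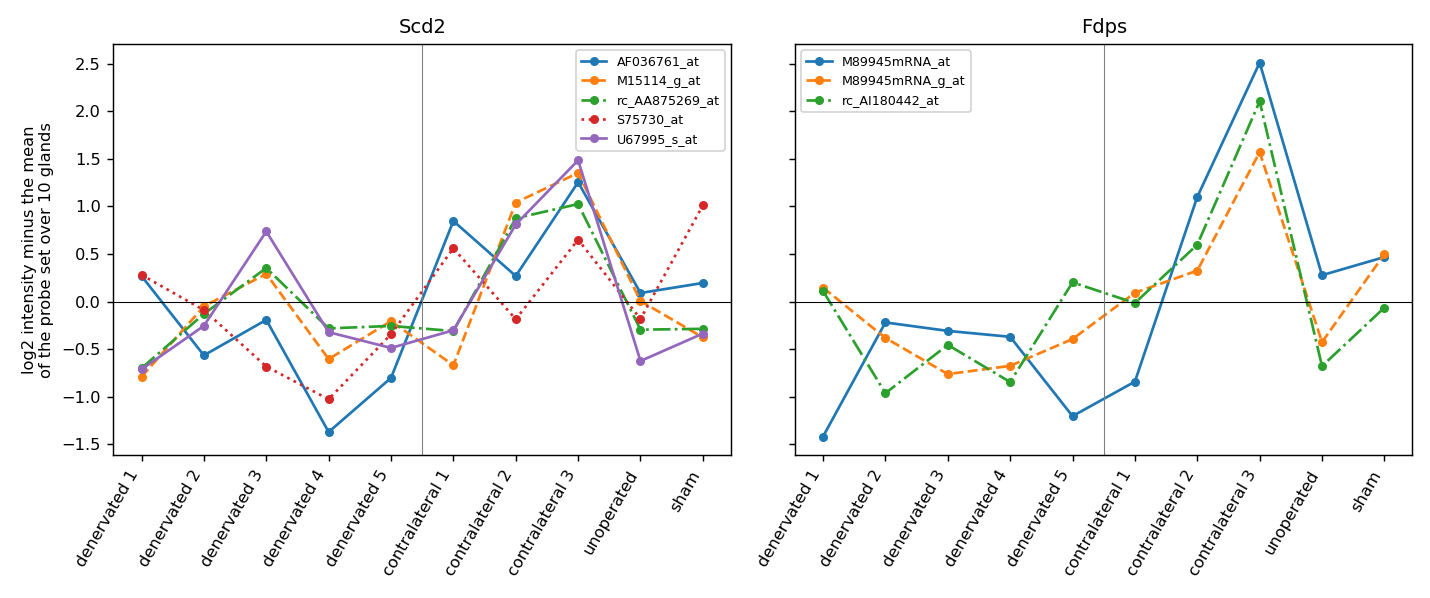
Log2 intensity of each tested Scd2 probe set (left panel) and Fdps probe set (right panel) minus its own mean over the 10 glands (vertical axis), by gland on the horizontal axis with the denervated glands left of the line and the controls right of it. All 3 Fdps probe sets peak in contralateral 3, and among the Scd2 probe sets S75730_at peaks in the sham gland while the other 4 peak in contralateral 3.

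Scd differed from Scd2 in direction. J02585_at read 716, 269, 643, 911 and 346 in denervated glands 1 to 5, against 142, 220 and 790 in the contralateral glands, 722 in the unoperated and 177 in the sham gland. Contralateral 1 was below the floor and the groups overlapped over most of their range, with a log2 difference of 0.70 ± 0.62 (limma, adjusted p = 0.728). Without denervated 1, contralateral 1 and sham the difference was -0.05, and it was 0.44 without contralateral 1 alone. The dim probe set rc_AI175764_s_at had 313 in denervated 1, 257 in contralateral 2 and 180 in the unoperated gland, and it was at the floor in the other 7.

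Fdps had the largest difference of the 7 genes. M89945mRNA_at read 2231, 5119, 4814, 4611 and 2588 in denervated glands 1 to 5, against 3327, 12762 and 33912 in contralateral glands 1 to 3, 7220 in the unoperated and 8239 in the sham gland. All 5 denervated glands were below 4 of the 5 controls, and 3 of them were above contralateral 1. The mean log2 intensity was 11.84 ± 0.56 in denervated and 13.24 ± 1.23 in control glands (SD, n = 5 each), a ratio of 0.377. The log2 difference of -1.41 ± 0.49 (SE) had an unadjusted p of 0.012 and an adjusted p of 0.437 in limma, and it was -0.95 without contralateral 3.

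The other Fdps probe sets were also highest in contralateral 3. M89945mRNA_g_at read 4177, 2895, 2226, 2363 and 2873 in the denervated glands, against 4023, 4726 and 11197 in the contralateral, 2810 in the unoperated and 5329 in the sham gland. Denervated 3 and 4 were below every control, and the log2 difference was -0.83 ± 0.34 (limma, unadjusted p = 0.0293, adjusted p = 0.46), or -0.54 without contralateral 3. For rc_AI180442_at the values were 1107, 526, 748, 570 and 1178 in denervated glands, against 1014, 1550 and 4401 in contralateral glands, 641 in the unoperated and 980 in the sham gland. Denervated 1 and 5 exceeded 3 of the 5 controls here, and the log2 difference was -0.78 ± 0.51, or -0.35 without contralateral 3. The 3 Fdps probe sets correlated with each other at 0.64 to 0.89 over the 10 glands.

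Fdft1, which commits farnesyl units to sterols, gave 4 readings that did not run together, with correlations between -0.34 and 0.58 over the 10 glands. Over the 7 glands without denervated 1, contralateral 1 and sham the correlation was higher for every pair, from -0.22 to 0.75. M95591_at read 320, 593, 1040, 1509 and 1168 in denervated glands, against 1492, 539 and 5275 in contralateral glands, 1857 in the unoperated and 960 in the sham gland. M95591_g_at read 1919, 1112, 1504, 315 and 478 in denervated glands, against 1608, 367 and 3261 in contralateral glands, 2170 in the unoperated and 2372 in the sham gland. Contralateral 3 was the highest gland on both, and contralateral 2 was among the low ones. Their log2 differences were -0.89 ± 0.60 and -0.87 ± 0.64. That of M95591_at was -0.43 without contralateral 3 and -0.55 without denervated 1, and that of M95591_g_at was -1.40 without contralateral 2 and -0.51 without denervated 4. On rc_H33426_at the denervated glands had 495 to 2612, against 457 to 1271 in the controls, with denervated 5 at the top and a log2 difference of 0.10 ± 0.52 that was -0.28 without denervated 5. On rc_H33426_g_at they had 73.1 to 781, against 70.6 to 933 in the controls, with denervated 1 and contralateral 1 below the floor and a log2 difference of -0.74 ± 0.62, which was -1.19 without contralateral 1 and -0.48 without denervated 1. The denervated and control values overlapped on all 4 probe sets, and the adjusted p from limma ran from 0.642 to 0.952.

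Sqle, read by 1 probe set, lay on the other side of zero. D37920_at had 1067, 1268, 418, 881 and 540 in denervated glands 1 to 5, against 197, 165 and 589 in the contralateral glands, 871 in the unoperated and 1000 in the sham gland. Contralateral 1 and contralateral 2 were the lowest of the 10 glands, denervated 1 and 2 were the highest, and the groups overlapped. The log2 difference was 0.80 ± 0.61 against all controls (limma, adjusted p = 0.676). It was 0.45 without contralateral 2 and 0.51 without contralateral 1.

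Set against the 3 contralateral glands alone, which were taken at the same interval, 16 of the 19 probe sets were again lower in denervated glands and 3 were higher. This comparison shares the denervated and contralateral glands with the one above and is no separate evidence. The median log2 difference was -0.73, from -1.63 to 1.52, against a median of -0.01 and 50.5% lower over all tested probe sets. Again 0 of the 19 passed, with an adjusted limma p from 0.634 to 0.989, and 0% of all probe sets passed. At an unadjusted limma p under 0.05, 6 were lower (31.6%, against 3.01% of all probe sets) and 1 was higher (5.26%, against 4.15%). The 6 were Fasn X13527cds_s_at, Scd2 AF036761_at and rc_AA875269_at, and all 3 of Fdps, and the higher one was Sqle. The 7 (against 7.16% of all probe sets in either direction) became 3 without contralateral 3 (4.38%). They became 4 without contralateral 2 (6.26%), denervated 2 (4.56%) or denervated 4 (7.19%). In 1 of the 19, Acly J05210_g_at, the denervated glands lay wholly below the contralateral glands (5.26%, against 2.55% of all probe sets), and in 0 of the 19 they lay wholly above them (against 2.21%).

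By gene, the log2 difference from the contralateral glands on Fdps M89945mRNA_at was -1.63 ± 0.58 (limma, adjusted p = 0.634), and it was -0.83 without contralateral 3 and -2.51 without contralateral 1. Scd2 AF036761_at differed by -1.32 ± 0.38 (limma, adjusted p = 0.634) and by -1.09 without that gland. Sqle was higher in the denervated glands, by 1.52 ± 0.60 on the log2 scale (limma, adjusted p = 0.652). The 5 Scd2 probe sets had differences from -1.32 to -0.71 and the 2 of Fasn -0.85 and -0.81. Leaving out contralateral 1 or contralateral 3 gave -1.47 and -0.46 on Scd2 M15114_g_at and -1.35 and -0.46 on U67995_s_at.

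**Figure D3:**
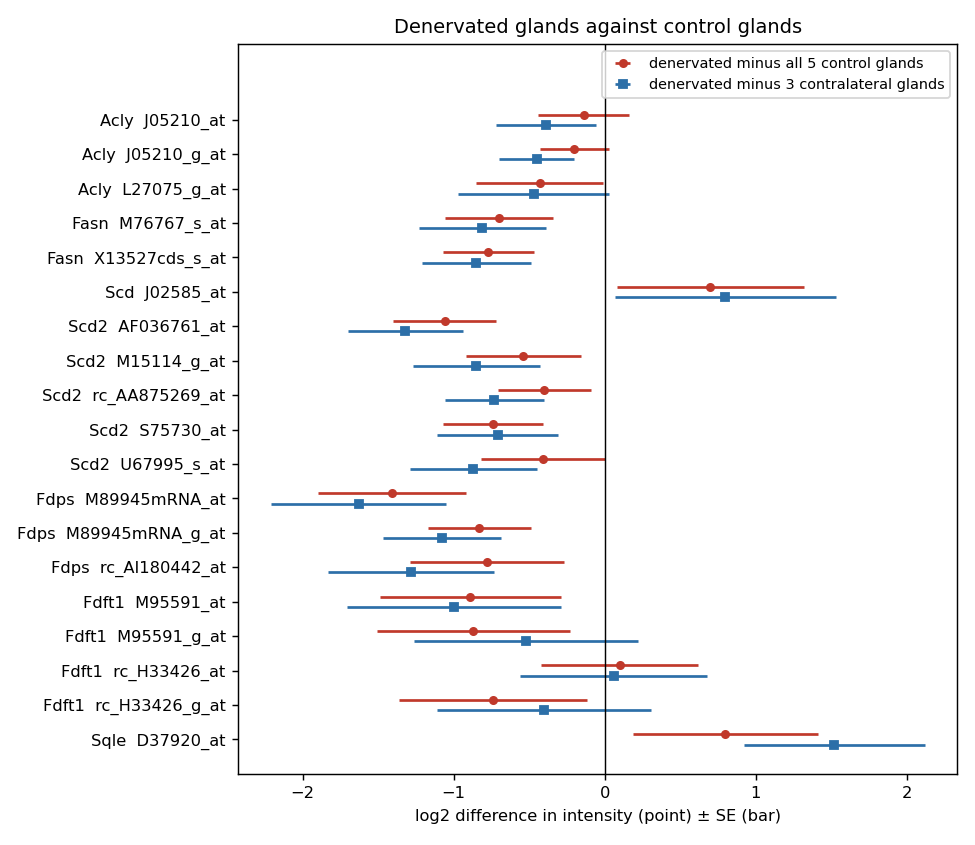
Log2 difference in intensity (point) with its standard error (bar) for each tested probe set on the horizontal axis, as denervated minus all 5 control glands and as denervated minus the 3 contralateral glands. Every Acly, Fasn, Scd2 and Fdps point lies below 0, Scd and Sqle lie above 0, and Fdft1 has 3 points below and 1 above.

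The contralateral glands themselves were set against the unoperated and sham glands, which are 1 gland each and formed 1 class. Of the 19 probe sets 14 were higher and 5 lower in contralateral glands, against 59.7% lower over all tested probe sets. The median log2 difference was 0.28, against -0.15 over all tested probe sets. The 5 lower ones became 9 without the sham gland (57.3% of all lower) and 8 without contralateral 3 (56.5%). No probe set passed (limma, adjusted p from 0.968 to 0.993 over the 19, and 0% of all probe sets). At an unadjusted limma p under 0.05, 1 was higher (5.26%, against 1.54% of all) and 1 lower (5.26%, against 3.37%). In all, 5 lay wholly above the 2 other glands (26.3%, against 6.88% of all probe sets), namely both J05210 probe sets of Acly, Scd2 AF036761_at and U67995_s_at, and Fdps rc_AI180442_at. Sqle lay wholly below them (5.26%, against 15.2%), at 197, 165 and 589 against 871 and 1000. The log2 differences were 1.14 ± 0.53 for U67995_s_at, 1.27 ± 0.68 for rc_AI180442_at and -1.80 ± 0.75 for Sqle. Without contralateral 3 they were 0.73 for U67995_s_at and 0.66 for rc_AI180442_at, and that of AF036761_at was 0.41 in place of 0.65.

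Among single glands, contralateral 3 was the highest of the 10 on 12 of the 19 probe sets, 6 of the 11 of fatty acid genes and 6 of the 8 of sterol genes. The lowest gland was denervated 1 on 6, denervated 5 on 4 and denervated 4 on 3. In the 5 glands with Scgb2a1 above the floor, 2 denervated and 3 control, 16 of the 19 were lower in denervated glands with a median log2 difference of -0.84. In the 5 glands with it at the floor, 3 denervated and 2 control, 14 of 19 were lower with a median of -0.25. Fdps M89945mRNA_at differed by -1.63 within the first set and -0.76 within the second, and Scd2 AF036761_at by -1.32 and -0.89. Scd2 M15114_g_at differed by -0.96 within the first and by 0.17 within the second. These within-set values have no test, and their counts have no share over all probe sets beside them. They therefore do not show how far these genes depart from the arrays as a whole. With the set as a block, 15 of the 19 were lower, against 57.2% of all probe sets. In that fit 5 of the 19 had an unadjusted limma p under 0.05, against 12.8% of all probe sets, and the smallest adjusted p was 0.289. Without denervated 1, contralateral 1 and sham, 18 of the 19 were lower, against 53.2% of all probe sets, and the smallest adjusted p from limma was 0.168.

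Other genes of lipid metabolism were counted with 1 probe set per gene for denervated against all control glands, beside 5.03% of all genes higher and 5.11% lower at an unadjusted limma p under 0.05 and a median log2 difference of -0.08. No gene of these lists passed after adjustment. Of 31 further fatty acid synthesis genes 11 were tested, 7 higher and 4 lower, with a median of 0.04. Idh1 and Me1, which supply cytosolic NADPH, had differences of 0.70 ± 0.29 and 0.69 ± 0.42, and Elovl5, a fatty acid elongase, 0.45 ± 0.38. Of 21 further sterol synthesis genes 11 were tested, 3 higher and 8 lower, with a median of -0.19, none at an unadjusted limma p under 0.05. Hsd17b7 and Cyp51, which act after lanosterol, differed by -0.80 ± 0.60 and -0.65 ± 0.57, and Lss, which makes lanosterol, by -0.44 ± 0.43. Lbr, a nuclear envelope protein with sterol reductase activity, differed by 0.56 ± 0.45. Among the regulators 4 of 11 were higher and 7 lower, with a median of -0.05. Insig1, which retains the SREBP precursors in the endoplasmic reticulum and is itself an SREBP target, had a log2 difference of -0.74 ± 0.43 (limma, adjusted p = 0.592), and Srebf1 one of 0.00 ± 0.59.

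Genes that use or move the lipid products gave mixed counts. Of 13 tested genes of triglyceride and phospholipid synthesis 9 were lower, 2 of them at an unadjusted limma p under 0.05, with a median of -0.28. Pla2g6, a phospholipase, read 638 to 1280 in denervated glands, against 2180 to 2940 in controls, with no overlap and a log2 difference of -1.36 ± 0.31 (limma, adjusted p = 0.434). Pemt, which methylates phosphatidylethanolamine, differed by -1.31 ± 0.59. Of 15 tested genes of cholesterol and fatty acid transport and storage 9 were higher, 4 of them at an unadjusted limma p under 0.05, with a median of 0.22. Apoe, a lipid carrier that macrophages also make, differed by 1.78 ± 0.50 (limma, adjusted p = 0.434), and Lipa, the lysosomal lipase, by 1.08 ± 0.40. Of 21 tested genes of fatty acid oxidation 13 were lower and 8 higher, with a median of -0.29, and Cpt2, the mitochondrial carnitine palmitoyltransferase, differed by -0.71 ± 0.27.

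**Figure D4:**
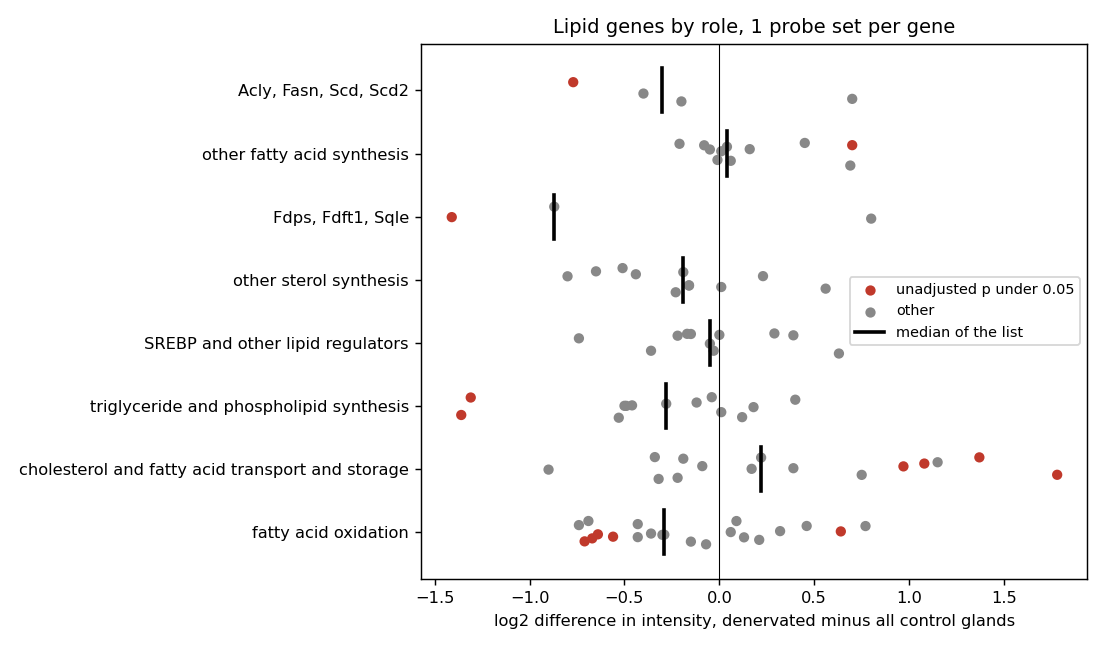
Log2 difference in intensity, denervated minus all control glands, for each tested gene (point, horizontal axis) of the 7 lipid and sterol synthesis genes described here and of 6 further lists of lipid genes, with a bar at each list's median. The 7 genes stand in their fatty acid and sterol groups, where Fdps at -1.41 and Fasn at -0.77 have an unadjusted p under 0.05, and the transport and storage list has its 4 such genes on the higher side.

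Several marker lists were lower or higher in denervated glands, and their part in the values above was not tested. Over all 3620 genes with 1 probe set each, 55.6% were lower, with a median of -0.08. At an unadjusted limma p under 0.05, 5.03% of them were higher and 5.11% lower. Of 15 salivary gland markers 10 were measured and 7 tested, all 7 lower with a median log2 difference of -1.90. Their summed intensity was 6577 to 145870 in denervated and 47167 to 315641 in control glands, and Prb1 was at the floor in 8 of the 10 glands. Klk1, a salivary kallikrein, read 51.3 to 372 in denervated glands, against 584 to 1140 in controls, and it was at the floor in denervated 2 to 5. Of 19 endoplasmic reticulum chaperones 17 were tested, 16 lower and 14 of these at an unadjusted limma p under 0.05. Their summed intensity was 272930 to 664042 in denervated glands, against 555126 to 1115593 in controls, and their mean log2 score was highest in contralateral 3, at 0.61. Of 16 adipocyte markers, listed because fat around the gland makes the same enzymes, 12 were measured and 9 tested, 5 higher and 4 lower, with a median of 0.07. The 2 with an unadjusted limma p under 0.05 were Cfd and Fabp4, both higher in denervated glands, by 1.63 ± 0.75 and 1.37 ± 0.63 on the log2 scale. The summed intensity of the 12 was 19417 to 28577 in denervated and 17642 to 22718 in control glands, and Plin1, which coats lipid droplets, was at the floor in 7 glands. Of 15 markers of Harderian, Meibomian or sebaceous glands 6 were measured, 5 higher and 1 lower, with Mgst1 at 1.49 ± 0.67, Mc5r at -1.38 ± 0.50 and sums of 54507 to 138540 in denervated and 23167 to 110629 in control glands. The denervated sums also reached higher for macrophage markers (88602 to 367015, against 56888 to 152636, 10 of 12 tested higher) and for matrix and fibroblast markers (155789 to 666459, against 122255 to 208760, 16 of 19 higher). Much of the macrophage sum was Apoe alone, at 39800 to 285000 in denervated glands, against 22000 to 74900 in controls. Of 11 tested T and natural killer cell markers 8 were lower and 3 higher, with a median of -0.31. For myoepithelial and smooth muscle markers the sums were 35397 to 115563 in denervated glands, against 29127 to 49728 in controls, with 8 of 10 tested higher.

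The other genes whose pattern over the 10 glands was most like the mean of Acly, Fasn, Scd and Scd2 were Pex14, Eef2k, Aldh1a1, Stx8 and Cldn3, with correlations of 0.90, 0.89, 0.89, 0.88 and 0.87. For the mean of Fdps, Fdft1 and Sqle they were Abcc3, Gng7, Scg5, Ptbp3 and Slc8a1, at 0.83, 0.82, 0.82, 0.81 and 0.80. They are the highest correlations among all named probe sets, over 10 arrays that share their scaling, and stand as a description. On the probe set with the highest mean for each gene, Acly, Fasn, Scd and Scd2 correlated with each other at -0.16 to 0.54. Fdps, Fdft1 and Sqle did so at -0.14 to 0.28. The means therefore need not show a pattern that their genes share.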

How the data were processed

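One array per gland gave 1 intensity for each of 8799 probe sets. These linear intensities are the authors' values as deposited, and the deposited values show that each array had been scaled, with trimmed means (2% off each end) of 2505 to 2507. Which software made them is not stated in the labels or headers. The scaling was kept, the 59 array controls were removed, and intensities below 156.6 (20th percentile of the remaining 8740 probe sets) were set to that floor before log2 was taken. Floored values have no order, and a difference understates the change where the lower group alone holds them.

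The 6118 probe sets with a mean log2 above 8.32 (30th percentile) were tested with limma 3.58.1 in R 4.3.3 (lmFit and trended eBayes) by two-sided tests, adjusted by Benjamini-Hochberg over all of them at a threshold of 0.05. One fit set denervated against all control glands, and one with 3 classes gave the other comparisons. Symbols came from the platform annotation (7006 probe sets with 1 symbol, 308 with several, 1426 unlisted), and 6985 of the gene IDs were found in a RefSeq table. Precision is limited by the number of arrays, with a median standard error of 0.5 on the log2 scale. On simulated data with 200 changed probe sets of 6118, the test of denervated against all control glands recovered 15.9% of 2-fold and 65.7% of 4-fold changes. The changed probe sets were drawn from those with a mean log2 more than 2 above the floor. Noise was drawn for each probe set on its own. The recovery therefore does not cover dimmer probe sets, among them Scd J02585_at, Fdft1 rc_H33426_g_at and Sqle D37920_at.

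All probe sets of the 8 genes were described. Of each pathway list up to 4 genes with the smallest unadjusted p could be named, and of each member group the 5 most correlated genes. Srebf1, Pip, Aqp5, Scgb2a1, Lcn2, Csap1, Dnase1, Klk1, Prb1, Plin1, Cfd, Coro1a, Cd53, Mgst1 and Mc5r were named besides. The members and lists were chosen with earlier results of these data known. Alternatives changed the floor, scaling, filter, array weights, variance trend, number of probe sets per gene and replicate block, and left out each gland in turn, and 5 more were chosen after the data were seen. Figures were drawn with matplotlib 3.10.9.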

Additional observations from a re-analysis of the deposited data

Results flagged for a closer look

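On Fasn M76767_s_at, denervated 1 stood apart from the other 4 denervated glands by Dixon's criterion, which chance alone meets in about 1 in 20 groups and which was applied to 21 probe sets. It had a log2 intensity of 9.47, against 10.61 to 10.99 in the others, a gap of 0.749 of the group's range. On Scd rc_AI175764_s_at, denervated 1 had 8.29 while the other 4 were at the floor of 7.29. That gap is set by the floor and is no test of a gland apart, since without the floor it was 0.524 of the range, under the criterion of 0.71.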

How the results depend on the processing

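In all 3 comparisons 0 of the 19 tested probe sets passed after adjustment under every alternative run, and no Fasn, Scd2, Fdps or Sqle probe set changed direction in either denervated comparison. Same-numbered contralateral and denervated glands were not taken as pairs in the main fits. The correlations of their deviations were 0.49, 0.04 and 0.16. With no other pairs set beside them, these cannot show whether such glands share an animal. With the replicate block, which leaves the denervated and contralateral pairs to set the value in both comparisons, the log2 difference turned to 0.25 on Fdft1 M95591_g_at and to -0.47 on Fdft1 rc_H33426_at, and the count of probe sets past the adjusted threshold stayed at 0. Counts at an unadjusted limma p under 0.05 are in either direction, with the share of all probe sets in brackets. The 5 against all controls (9.68%) became 2 with median centring (8.56%), 3 without the variance trend (8.76%) and 3 without denervated 2 and 5 (3.45%). They became 7 with the replicate block (7.03%), 7 with the block for denervated 1, contralateral 1 and sham (9.92%), and 6 without those 3 glands (11.7%). The 7 against contralateral glands (7.16%) became 3 without denervated 2 and 5 (3.14%). They became 10 with array weights (10.4%) or with the block for those 3 glands (8.81%). The 2 against unoperated and sham glands (4.9%) became 0 to 6 over the alternatives, while the share ran from 3.37% to 8.4%. The replicate block could not be fitted for contralateral against unoperated and sham glands.

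Directions that turned against all controls were those of Fdft1 rc_H33426_at (-0.20 with array weights, -0.03 with a block for denervated 1, contralateral 1 and sham, -0.17 with a block for 3 sets of arrays, -0.34 without those 3 glands, -0.13 without denervated 2 and 5, and -0.28 to 0.32 leaving out each gland), Acly J05210_at (0 with array weights, 0.16 with 3 sets, 0.20 without denervated 2 and 5, 0.01 with the Scgb2a1 block, and -0.31 to 0.01 leaving out each gland), Acly J05210_g_at (0.03 with 3 sets and 0.04 without denervated 2 and 5), Acly L27075_g_at (0.01 with 3 sets) and Scd J02585_at (-0.05 without the 3 glands). Against contralateral glands, Fdft1 rc_H33426_at turned to -0.35, -0.03, -0.17, -0.38 and -0.17 in the same order and ran from -0.38 to 0.35 leaving out each gland. Fdft1 M95591_g_at ran from -1.41 to 0.17 and rc_H33426_g_at from -1.12 to 0.17. The cause was not tested. The blocks by sets of arrays and by Scgb2a1, and the fits without those glands, were chosen after seeing the data. Values near the floor limit Scd, Sqle and rc_H33426_g_at most.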
